A study of Mus musculus with 10 samples.

Results

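The genes described here encode the nuclear subunits of respiratory complexes II, III, IV and V of mouse dendritic cells. They were taken from the RNA count table by symbol: Sdha to Sdhd, every name beginning with Uqcr or Atp5, and Cox followed by 4 to 8, without pseudogene suffixes and with at least 60 counts over the 6 libraries. This gave 42 of 24385 genes in the table: 4 of complex II, 8 of complex III, 13 of complex IV, 15 of complex V, and 2 (Atp5s and Atp5sl) that share the Atp5 prefix but are listed by RefSeq as Dmac2l and Dmac2 and are not subunits. A further 5 matching symbols, the isoform genes Cox4i2, Cox6a2, Cox7b2, Cox8b and Cox8c, had fewer than 60 counts. All 42 members passed the low-count filter of the test, which left 13075 genes.

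Mitochondria make most of their ATP by moving electrons from NADH and succinate to oxygen and using the resulting proton gradient to turn ATP synthase. Complex II (succinate dehydrogenase) oxidises succinate and is also an enzyme of the tricarboxylic acid cycle, complex III passes electrons from ubiquinol to cytochrome c, complex IV (cytochrome c oxidase) passes them to oxygen, and complex V is the ATP synthase. Dendritic cells that receive a microbial or inflammatory stimulus are known to rely more on glycolysis, and inhibition of complex II by itaconate is a known part of the macrophage response.

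Bone marrow of female C57BL/6 wild-type mice aged 8 to 10 weeks was cultured for 7 days with 20 ng/mL GM-CSF, a growth factor that yields a mixed population of dendritic cells and other myeloid cells. Non-adherent cells collected on day 6 as immature dendritic cells received 400 µg/mL AMLE (apple mango leaf extract) or 0.04% DMSO for 24 h. There were 3 RNA libraries per treatment (poly(A) selected) and 2 ATAC libraries per treatment, which map open chromatin. The labels give neither the solvent of the AMLE wells nor say that replicates are separate animals or cultures. A p-value therefore reflects the spread among these libraries alone, and that spread may be technical.

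RNA libraries held 26010455 to 34208286 counts, and every member other than Cox6b2, Cox7a1, Atp5s and Atp5sl had at least 11702 counts in all. Levels are CPM, counts scaled to library size with TMM factors. They depend on transcript length, so they are compared between libraries and not between genes. Markers of cell division and of other cell types moved with the treatment. Summed CPM of 8 proliferation genes was 1500 to 1664 in DMSO and 397 to 524 in AMLE, and all 8 were called lower. Of 7 granulocyte-precursor markers 5 were called lower (sums of 11162 to 18033 and 7839 to 11275 CPM, overlapping between the groups but lower in AMLE in all 3 same-numbered pairs). With the replicate number as a block all 7 were lower, through S100a8 (edgeR adjusted p = 0.00106) and S100a9 (0.00268). Of 8 macrophage markers 5 were called lower and 1 higher (656 to 892 and 415 to 552 CPM; 6 lower and 1 higher with the block). Dendritic cell markers were present in every library, with 3 of 8 called higher, 2 lower and sums of 4921 to 7601 and 4733 to 5641 CPM, which overlapped between the groups and fell within all 3 pairs. With the block 3 were lower, through Cd74 (edgeR adjusted p = 0.0248). The 7 lymphocyte markers summed to at most 27.4 CPM (0 of 4 tested called, and 1 higher with the block), and the 4 erythroid markers to at most 0.729 CPM, with 2 of them at 0 in all libraries. The part of these shifts in the results below was not tested, and in bulk RNA fewer cells of a type cannot be told apart from less RNA per cell.

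RNA of the respiratory complexes fell after AMLE. Of the 42 members, 31 were called lower and 0 higher (edgeR quasi-likelihood test, Benjamini-Hochberg adjusted p below 0.05 over all 13075 genes), where 25.6% of all tested genes were called lower and 23% higher. At an unadjusted p under 0.05, 32 were lower and 1 (Cox6b2) higher, and DESeq2 (21.3% of its tested genes lower and 19.9% higher) and limma-voom (25.9% and 23%) each called 30 lower and 0 higher. The median log2 change of the members was −0.25, a 16.2% lower level, beside −0.01 over all tested genes. Among the 4449 tested genes with a mean of at least 50 CPM, a level that 38 members reach, 29.4% were called lower and 26.4% higher, and 31 of those 38 members were lower. The groups did not overlap, with all AMLE libraries below all DMSO libraries, for 33 members (31.4% of tested genes), and no member had all AMLE libraries above (28.4%). In pairs of libraries with the same replicate number, the median member change was −0.16, −0.30 and −0.27 on the log2 scale for numbers 1, 2 and 3.

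**Figure D1:**
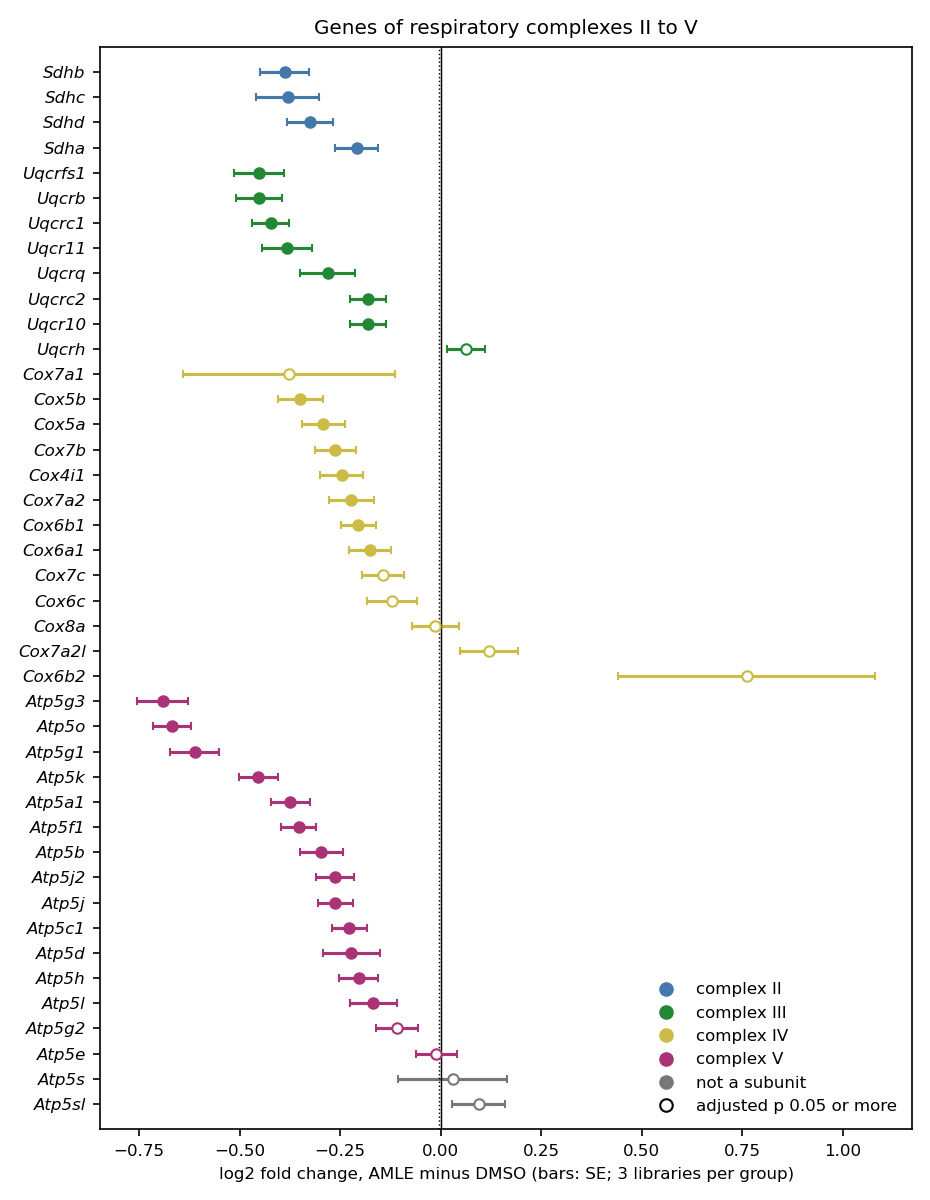
Log2 fold change (AMLE minus DMSO, horizontal axis) of each of the 42 genes with its standard error, coloured by complex; filled points have an edgeR adjusted p below 0.05 and the dotted line is the median of all tested genes. Most points lie between −0.45 and −0.15, Atp5g3, Atp5o and Atp5g1 lie furthest to the left at −0.69, −0.67 and −0.61, and Cox6b2, at 0.76, has a wide error.

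By complex, summed RNA fell in all 4, to between 79.6% and 89.5% of the DMSO level. Summed over its members, complex V was 3841 ± 57.8 CPM (SD, n = 3) in DMSO and 3056 ± 84.1 in AMLE, which is 79.6%. Such a sum gives more weight to genes with more reads, in complex V to Atp5b (1076 CPM in DMSO) and Atp5a1 (852 CPM). Complex II stood at 81.5% (697 ± 28.9 to 568 ± 25.6 CPM) and complex III at 83.8% (927 ± 21.1 to 777 ± 21.1). Complex IV kept 89.5% (1975 ± 65.4 to 1767 ± 36.7). That sum follows the name rule and includes Cox7a2l, a relative of subunit 7a (mean 199 CPM in DMSO and 216 in AMLE). It leaves out Ndufa4, which fell (88.1 to 58.8 CPM), and AA467197, which rose (54.4 to 105 CPM). The standing of complex IV among the 4 thus depends in part on the genes summed. For each complex all 3 AMLE sums lay below all 3 DMSO sums. Median log2 changes were −0.35 for II, −0.33 for III, −0.20 for IV and −0.26 for V, and the difference between complexes was not tested. These ranges overlapped at the level of single genes, from −0.39 to −0.21 in complex II and from −0.69 to −0.01 in complex V.

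**Figure D2:**
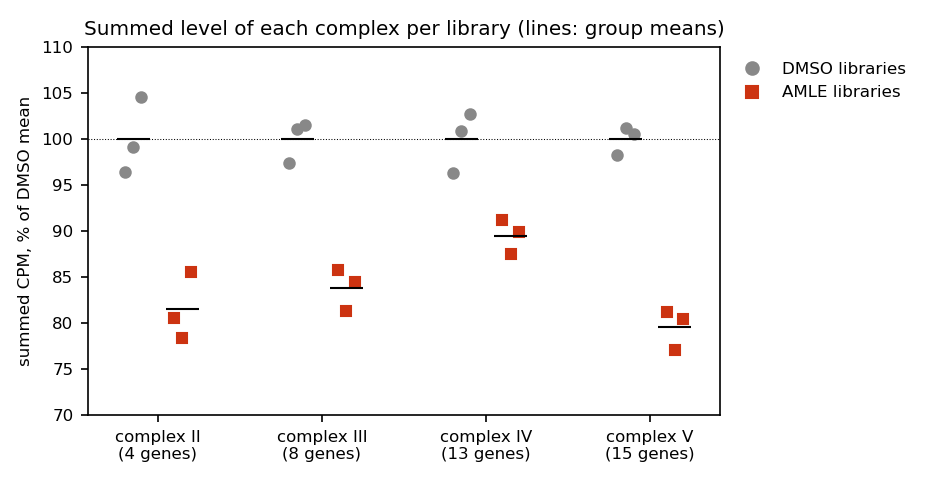
Summed CPM of the member genes of each complex in each library, as a percent of the DMSO mean (vertical axis from 70 to 110); circles are DMSO libraries, squares AMLE libraries and lines group means. AMLE libraries sit at 78.4% to 85.6% for complex II and 87.5% to 91.2% for complex IV, below every DMSO library.

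All 4 subunits of complex II were lower. Sdhb, which carries the iron-sulphur clusters of the catalytic head, was 120, 121 and 128 CPM in DMSO replicates 1 to 3 and 93.1, 87.9 and 101 CPM in AMLE. The groups were apart, with a log2 change of −0.39 ± 0.06 (SE; edgeR adjusted p = 0.00195). The membrane anchors Sdhc (−0.38) and Sdhd (−0.33) fell by similar amounts. Sdha, the flavoprotein that oxidises succinate, went from 283 ± 14.9 to 245 ± 5.59 CPM (−0.21 ± 0.05; edgeR adjusted p = 0.0158, and 0.0694 without AMLE replicate 1).

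In complex III, 7 of 8 members were lower. Uqcrfs1, the Rieske iron-sulphur protein that takes electrons from ubiquinol, stood at 94.8, 96.9 and 107 CPM in DMSO and 74.2, 69.2 and 75.2 in AMLE. That is −0.45 ± 0.06 on the log2 scale (edgeR adjusted p = 0.00116), with no overlap of the groups. Uqcrb, a small subunit near the ubiquinone site, fell by the same amount (−0.45), and the core protein Uqcrc1, a scaffold on the matrix side, was 194, 199 and 198 CPM in DMSO and 153, 142 and 147 in AMLE (−0.42 ± 0.05). Uqcr11 (−0.38) and Uqcrq (−0.28) fell, and the second core protein Uqcrc2 and the small subunit Uqcr10 fell least (−0.18 each). Uqcrh, the hinge protein that helps cytochrome c dock, was the exception. Its levels were 157, 165 and 169 CPM in DMSO and 168, 171 and 174 CPM in AMLE, overlapping, at 0.06 ± 0.05 (edgeR adjusted p = 0.293). Without DMSO replicate 2 only 4 members of complex III were called lower, since Uqcrc2 (edgeR adjusted p = 0.0510), Uqcrq (0.0509) and Uqcr10 (0.0594) missed the threshold. Cyc1, the cytochrome c1 subunit that the name rule does not reach, fell as well (−0.42 ± 0.05; edgeR adjusted p = 0.00061).

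In complex IV, 7 of 13 members were called lower and 6 were not called. Missing the threshold does not show that RNA did not fall, and the 6 include the scarce isoform genes Cox6b2 and Cox7a1. Cox5b, a zinc-binding subunit on the matrix side, had the largest fall among those called, from 154, 158 and 168 CPM to 133, 123 and 122 (−0.35 ± 0.06; edgeR adjusted p = 0.00219). Cox5a (−0.29), Cox7b (−0.26), Cox7a2 (−0.22), Cox6b1 (−0.20) and Cox6a1 (−0.18) fell too. Cox4i1, the common form of the regulatory subunit 4, was 304, 320 and 335 CPM in DMSO and 267, 264 and 277 in AMLE (−0.25 ± 0.05; edgeR adjusted p = 0.00756). The AMLE libraries were all below the DMSO libraries for each of these 7 genes.

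Cox8a, the smallest membrane subunit, did not separate: 253, 265 and 233 CPM in DMSO and 253, 247 and 244 in AMLE, at −0.01 ± 0.06 (edgeR adjusted p = 0.864). Cox6c was 120, 125 and 138 CPM in DMSO and 118, 113 and 121 in AMLE (−0.12 ± 0.06; edgeR adjusted p = 0.144). Cox7c was 86.8, 93.6 and 89.5 CPM in DMSO and 84.9, 80.7 and 78.7 in AMLE, apart but at −0.14 ± 0.05 with an edgeR adjusted p of 0.0522, and it was called with a replicate block (edgeR adjusted p = 0.0482). Cox7a2l, also known as SCAF1, is a relative of subunit 7a known for supercomplexes of complexes III and IV, a role not tested here. It stood at 181, 198 and 217 CPM in DMSO and 209, 213 and 226 in AMLE, with overlap (0.12 ± 0.07; edgeR adjusted p = 0.209, and 0.0399 without both libraries numbered 3). Differences between the subunits that were called and those that were not were not tested.

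The alternative isoform genes of complex IV were scarce in these cells. Cox4i2, a form of subunit 4 known from lung and hypoxia, had 23, 6 and 2 counts in DMSO and 5, 10 and 2 in AMLE, beside 6880 to 9726 counts of Cox4i1 per library. Cox6a2, the muscle form of 6a, had 1 to 7 counts per library, Cox7b2 had 1 count in all, and the muscle gene Cox8b and Cox8c had 0. Cox7a1, the muscle form of 7a, reached 0.922, 1.40 and 1.62 CPM in DMSO and 0.854, 1.02 and 1.15 in AMLE (−0.38 ± 0.26; edgeR adjusted p = 0.271). Cox6b2, the testis form of 6b, was at 0.890, 1.19 and 1.83 CPM in DMSO and 2.68, 2.39 and 1.53 in AMLE. Its groups overlapped (0.76 ± 0.32; edgeR adjusted p = 0.0857), and it was called higher without DMSO replicate 3 (0.0334), without AMLE replicate 3 (0.0243) and without both (0.00139). The ratio of Cox4i2 to Cox4i1 reads, of Cox6a2 to Cox6a1 and of Cox7a1 to Cox7a2 gave two-sided exact permutation p = 1, 0.4 and 0.7 between the treatments.

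Ndufa4 and AA467197 (known in other species as NMES1 or C15orf48) encode a pair of related complex IV subunits, and the AA467197 product is known to replace Ndufa4 during inflammation. Neither is a member. Ndufa4 was 89.5, 88.4 and 86.4 CPM in DMSO and 61.7, 50.9 and 63.8 in AMLE (−0.59 ± 0.09; edgeR adjusted p = 0.0014). AA467197 went the other way, from 47.3, 57.7 and 58.1 CPM to 114, 108 and 91.4 (0.94 ± 0.11; edgeR adjusted p = 0.00065). There were 52.8, 65.3 and 67.2 AA467197 reads per 100 Ndufa4 reads in DMSO and 185, 212 and 143 in AMLE. The ratio was 2.90-fold higher (log2 difference 1.53) with no overlap, at exact permutation p = 0.1, the smallest that 3 against 3 libraries allow (0.175 adjusted over the 7 ratios compared).

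Complex V had 13 of 15 members lower. In the F1 head, where ATP is made, the catalytic subunit Atp5b was 1075, 1102 and 1051 CPM in DMSO and 897, 850 and 880 in AMLE (−0.30 ± 0.05; edgeR adjusted p = 0.00325). Its partner Atp5a1 fell by 0.37 on the log2 scale (from 852 ± 9.10 to 657 ± 17.5 CPM), and the rotor subunits Atp5c1 (−0.23) and Atp5d (−0.22) fell less. The smallest rotor subunit, Atp5e, stood at 112, 109 and 109 CPM in DMSO and 116, 104 and 109 in AMLE (−0.01 ± 0.05; edgeR adjusted p = 0.870). Atp5d was not called in 5 of the 14 alternative fits.

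Atp5o, the oligomycin sensitivity conferring protein that ties the F1 head to the peripheral stalk, was 143, 149 and 148 CPM in DMSO and 95.3, 88.8 and 92.8 in AMLE. Its 37.1% fall (−0.67 ± 0.05; edgeR adjusted p = 9.1e-05) was accompanied by smaller falls of the other stalk subunits, Atp5f1 (−0.35), Atp5j (−0.26) and Atp5h (−0.20). Of the small subunits of the membrane part, which shape the dimers of the enzyme, Atp5k fell from 78.2 ± 2.54 to 57.1 ± 1.48 CPM (−0.45 ± 0.05). Atp5j2 fell by 0.26 on the log2 scale, and Atp5l was at −0.17, a call held in 4 of 14 alternative fits. Outside the name rule, 2010107E04Rik fell (−0.40), while Usmg5, which encodes a small subunit of the dimer, was at 0.06 (edgeR adjusted p = 0.476). Atp5s (0.03) and Atp5sl (0.09), which are not subunits, were not called.

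The c ring, the rotating ring that proton flow turns, is made from 3 genes whose RNA changes ranged from −0.69 to −0.11 on the log2 scale. Atp5g1, Atp5g2 and Atp5g3 encode precursors that differ in their targeting peptide and give the same mature c subunit. Atp5g3 was 208, 220 and 226 CPM in DMSO and 141, 125 and 139 in AMLE (−0.69 ± 0.06; edgeR adjusted p = 2.1e-04). Atp5g1 was 107, 114 and 107 CPM in DMSO and 76.2, 66.7 and 72.2 in AMLE (−0.61 ± 0.06; edgeR adjusted p = 2.9e-04). For both genes the gap between the groups was wider than the range within either group. Atp5g2 was 82.4, 87.7 and 90.5 CPM in DMSO and 81.5, 82.0 and 78.1 in AMLE (−0.11 ± 0.05; edgeR adjusted p = 0.119), apart by less than 1 CPM between the nearest libraries. The share of c-ring reads from Atp5g2 was 21.0% ± 0.370 (SD, n = 3) in DMSO and 28.1% ± 1.66 in AMLE, and that of Atp5g3 went from 52.6% ± 0.580 to 47.0% ± 1.26. The Atp5g1 share went from 26.4% ± 0.941 to 24.9% ± 0.552, with overlap of the groups. There were 253, 251 and 249 Atp5g3 reads per 100 Atp5g2 reads in DMSO and 173, 152 and 178 in AMLE. This ratio, and that of Atp5g1 to Atp5g2, did not overlap between the groups (exact permutation p = 0.1 each, the smallest possible; 0.175 adjusted over 7 ratios). The ratio of Atp5g1 to Atp5g3 gave the same p-values and no overlap, although it changed only 1.06-fold. The summed c-ring level was 414 ± 14.3 CPM in DMSO and 287 ± 12.9 in AMLE.

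**Figure D3:**
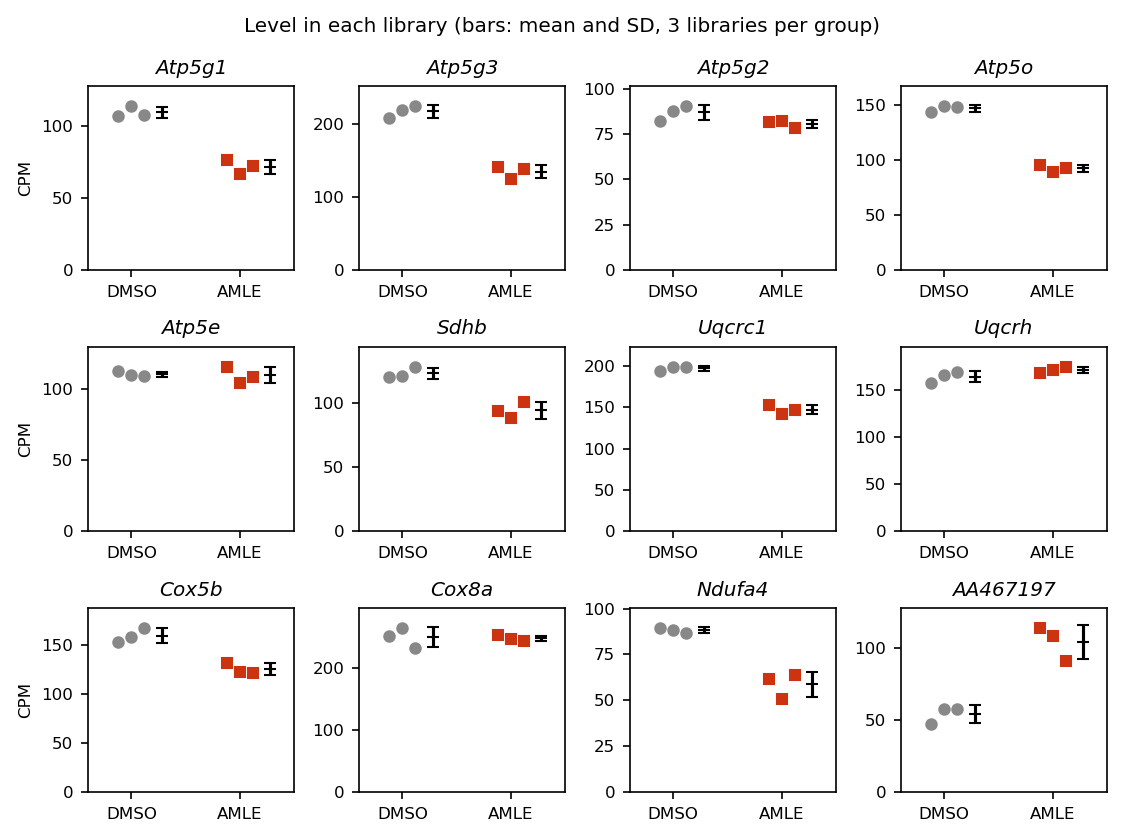
CPM in each library (vertical axes from 0) for 12 genes, DMSO as circles and AMLE as squares, with mean and SD of 3 libraries beside them. Atp5g1, Atp5g3, Atp5o, Sdhb, Uqcrc1, Cox5b and Ndufa4 are lower in every AMLE library, Atp5g2 is lower by a narrow margin, Atp5e, Uqcrh and Cox8a overlap, and AA467197 is higher in every AMLE library.

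**Figure D4:**
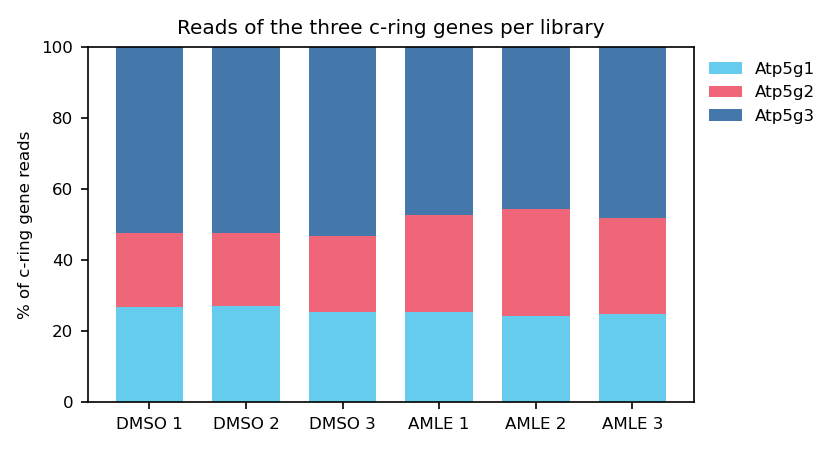
Share of the reads of Atp5g1, Atp5g2 and Atp5g3 in each library (bars stacked to 100%). The Atp5g2 part is 20.7% to 21.4% in DMSO libraries and 27.0% to 30.0% in AMLE libraries.

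Promoters are shown for the c-ring genes, since they encode the same mature protein and their RNA changes ranged from −0.69 to −0.11, and for Atp5o and Cox8a, at −0.67 and −0.01. Each sequence runs from 250 bases before to 50 after a RefSeq start (build GRCm38.p6), 5′ to 3′ on the gene's strand. The starts used for Atp5g3 (73911326) and Atp5g1 (96075631) lie inside the RefSeq genes, which begin further upstream (at 73912464 and 96075694). The windows are chr11:96075582-96075881 for Atp5g1, chr15:102670998-102671297 for Atp5g2, chr2:73911277-73911576 for Atp5g3, chr16:91931581-91931880 for Atp5o and chr19:7217567-7217866 for Cox8a, all on the minus strand. Capitals mark matches, on either strand, to GCGCA and GCGC with any 1 base between them (NRF1), CCGGAAG (the ETS family, which includes GABPA), TCAAGGTCA (ERR) or AAGATGGC (YY1), factors known for nuclear genes of mitochondria. The last letters of the ETS string can be the first of the YY1 string.
Atp5g1: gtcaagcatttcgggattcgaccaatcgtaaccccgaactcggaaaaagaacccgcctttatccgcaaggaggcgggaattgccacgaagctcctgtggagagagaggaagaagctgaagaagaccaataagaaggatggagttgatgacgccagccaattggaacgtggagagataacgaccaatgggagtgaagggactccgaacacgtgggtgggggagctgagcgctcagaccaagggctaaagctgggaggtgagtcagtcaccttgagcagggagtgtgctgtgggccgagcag
Atp5g2: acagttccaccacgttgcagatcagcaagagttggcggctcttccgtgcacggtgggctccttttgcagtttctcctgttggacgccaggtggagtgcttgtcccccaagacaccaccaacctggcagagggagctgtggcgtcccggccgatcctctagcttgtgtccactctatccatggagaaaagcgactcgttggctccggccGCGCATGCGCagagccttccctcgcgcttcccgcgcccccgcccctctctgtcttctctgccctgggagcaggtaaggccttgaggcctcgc
Atp5g3: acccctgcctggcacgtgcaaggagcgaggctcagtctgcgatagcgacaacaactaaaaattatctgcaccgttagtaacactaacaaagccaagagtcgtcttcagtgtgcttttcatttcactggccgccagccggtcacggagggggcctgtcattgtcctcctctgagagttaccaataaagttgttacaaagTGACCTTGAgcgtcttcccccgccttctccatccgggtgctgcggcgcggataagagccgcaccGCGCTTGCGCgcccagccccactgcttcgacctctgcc
Atp5o: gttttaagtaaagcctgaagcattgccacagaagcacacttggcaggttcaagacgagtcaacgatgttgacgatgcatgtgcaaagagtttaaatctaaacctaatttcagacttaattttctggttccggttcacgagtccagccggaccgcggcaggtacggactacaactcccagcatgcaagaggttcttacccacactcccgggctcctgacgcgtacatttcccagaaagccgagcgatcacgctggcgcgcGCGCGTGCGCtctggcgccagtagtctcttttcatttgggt
Cox8a: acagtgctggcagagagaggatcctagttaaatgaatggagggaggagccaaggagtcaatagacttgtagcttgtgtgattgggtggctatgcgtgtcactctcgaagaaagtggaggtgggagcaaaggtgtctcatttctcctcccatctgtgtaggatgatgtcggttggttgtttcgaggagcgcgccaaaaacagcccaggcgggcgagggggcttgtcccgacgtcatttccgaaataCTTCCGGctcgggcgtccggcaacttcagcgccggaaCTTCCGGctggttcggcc
Atp5g3 and Atp5o hold NRF1 letters just after the start (at 12 and 9 bases), Atp5g2 holds them at −42, and Atp5g3 holds ERR letters at −52. Cox8a holds ETS letters at −5 and 32, and Atp5g1 holds none of these strings. A match is only a run of letters and no match says nothing of a factor.

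RefSeq promoter entries were found for 35 of the 42 members, and not for Sdhc, Uqcrb, Uqcrc2, Uqcrq, Cox4i1, Cox6c and Atp5a1. NRF1 letters stood in 10 of the 35 (28.6%), beside 11.1% of 10417 tested genes with an entry. They were in 9 of 25 members called lower (Sdha, Sdhd, Uqcrc1, Cox6a1, Atp5c1, Atp5g3, Atp5h, Atp5k and Atp5o) and in 1 of 10 not called (Atp5g2). Differences between members called lower and not called were not tested for any string. The 10 not called include the scarce Cox6b2 and Cox7a1 and the non-subunits Atp5s and Atp5sl. ETS letters stood in 34.3% of members and 19.7% of tested genes (9 of 25 lower and 3 of 10 not called, these being Uqcrh, Cox8a and Atp5e). ERR letters were in Sdhd and Atp5g3 (5.71%; 0.298% of tested genes) and YY1 letters in 11.4% (5.23%). By contrast, GGGCGG, the letters of SP1 sites, were in 37.1% of members and 66.8% of tested genes. CCAAT was again more frequent in members (57.1% and 42.8%), and TGACGTCA (a CRE) was in Uqcrfs1 alone (2.86% and 3.53%).

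Open chromatin at these starts was found in both treatments. An ATAC peak lay within 500 bases of the start in 31 and 32 of the 35 members in DMSO replicates 1 and 2, and in 31 in each AMLE library, beside 73.1%, 75.4%, 71.8% and 71.5% of 10425 tested genes. For 30 members the peak was in all 4 libraries (85.7%; 66.4% of tested genes), and these included Sdhb, Uqcrfs1, Cox5b, Atp5g3 and Atp5o, whose RNA fell, and Uqcrh, Cox8a, Atp5e and Atp5g2, whose RNA did not pass the test. The lists hold presence and the authors' fold enrichment, without read counts, so a change in the size of a peak was not tested. Median fold enrichment at the 30 starts was 12.5 and 14.5 in the DMSO lists and 10.9 and 11.2 in the AMLE lists, values from lists of different length that do not decide whether the peaks changed.

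Of the remaining 5, Cox7a1 had a peak in both DMSO libraries (fold 7.29 and 8.97) and in neither AMLE library, and Atp5k had one in every library but DMSO replicate 1. The AMLE lists are shorter, with 15805 and 15597 intervals beside 18460 and 19225 in DMSO. The share of all tested genes with a peak in DMSO alone was not counted, so Cox7a1 is not set apart by this. Cox6b2, the testis form, had no peak. The nearest peak summit was 3783 to 3802 bases from the start of Cox7b in the 4 libraries. Atp5g1 had no summit nearer than 40753 bases, although its RNA reached 66.7 to 114 CPM. Why a transcribed gene has no listed peak was not tested.

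The other genes of the pathway are given by list. Complex I core subunits were lower in 6 of 7 (85.7%, beside 25.6% of all tested genes) and higher in 0 (beside 23%). Their median was −0.30, with Ndufs8 at −0.55 ± 0.06 and Ndufs1 at −0.49 ± 0.05. Cycs, which encodes the cytochrome c that links complexes III and IV, fell from 63.5 ± 0.830 to 42.7 ± 2.80 CPM (−0.57 ± 0.06, edgeR adjusted p = 3.3e-04). The mitochondrially encoded subunits had no matching symbol in the table and were not analysed here. Complex I core genes and the members thus had similar medians, −0.30 and −0.25.

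Of the 35 assembly factors tested for complexes II to V, 8 were called lower (22.9%) and 4 higher (11.4%), beside 25.6% and 23% of all tested genes, so these counts do not set the lists apart. Of 4 for complex II, 1 was higher and 0 lower: Sdhaf1, which helps insert the iron-sulphur clusters of Sdhb, went from 17.0 ± 0.381 to 22.3 ± 0.143 CPM (0.39 ± 0.06; edgeR adjusted p = 0.00122), opposite in sign to all 4 subunits. At an unadjusted p under 0.05 edgeR gave 0 lower, as did DESeq2 and limma-voom at their adjusted thresholds. Of 6 for complex III, 2 were lower (Bcs1l at −0.30 and Uqcc1 at −0.23), 3 with a replicate block through Uqcc2 and 1 when DMSO library 1 or library 2 of either group was left out. Of 20 tested for complex IV, 5 were lower (25%, near the 25.6% of all tested genes) and 2 higher (10%, beside 23%). The largest changes were those of Coa7 (−0.76 ± 0.14) and the haem farnesyltransferase Cox10 (−0.52 ± 0.09). The copper chaperone Cox17 rose (0.45 ± 0.09) from 51.4, 55.0 and 52.0 CPM to 78.3, 75.0 and 62.7, and Coa5 rose (0.15). DESeq2 called 3 lower in this list, as did edgeR when library 2 of either group or AMLE library 1 was left out, and only 1 was higher when library 1 of either group or DMSO library 3 was left out. Of 5 for complex V, 1110001J03Rik (Fmc1 in RefSeq) fell (−0.70 ± 0.11) and Tmem70, which helps build the c ring, rose (0.27 ± 0.07), a call lost without DMSO replicate 1 or 2. Atpif1, the inhibitor of ATP synthase run in reverse, averaged 159 ± 8.58 CPM under DMSO against 152 ± 2.93 under AMLE (−0.06 ± 0.05; edgeR adjusted p = 0.346).

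**Figure D5:**
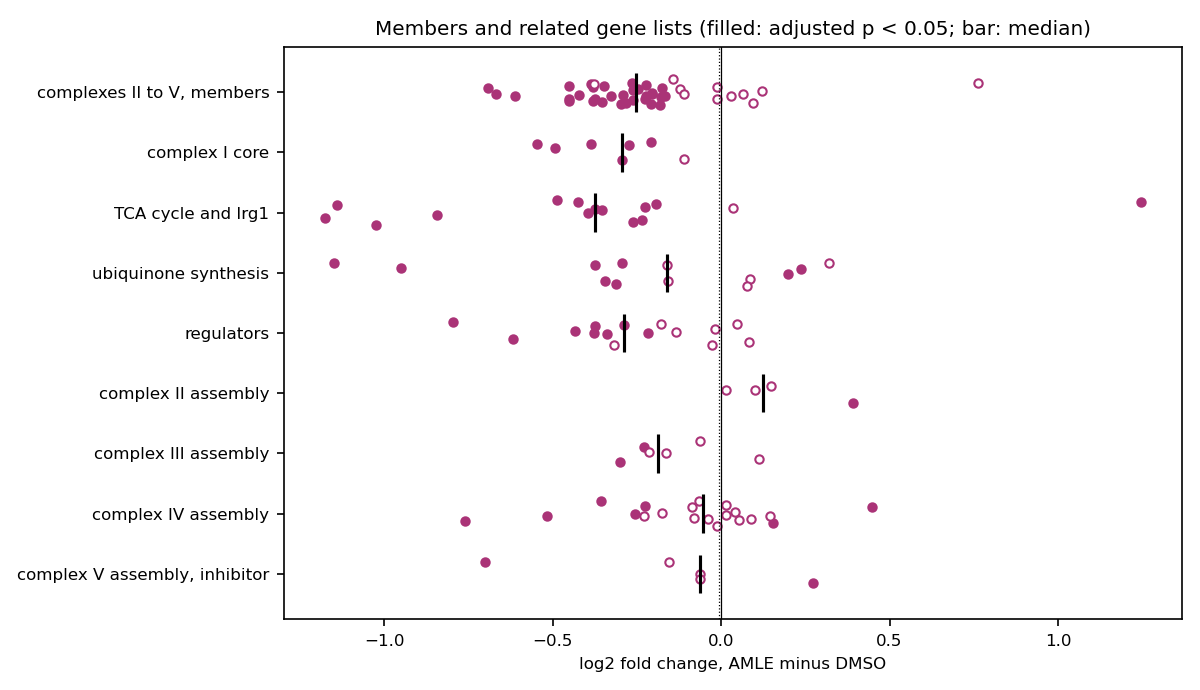
Log2 fold change (AMLE minus DMSO, horizontal axis) of the 42 members and of genes in 8 related lists, 1 point per gene; filled points have an edgeR adjusted p below 0.05, bars are list medians the dotted line is the median of all tested genes and vertical spread within a list has no meaning. Members, complex I core and tricarboxylic acid cycle genes lie mostly left of 0, with Irg1 alone at 1.25, and assembly factors lie on both sides.

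Tricarboxylic acid cycle genes feed electrons to complexes I and II and were listed together with Irg1. In this list 13 of 15 were lower (86.7%, beside 25.6% of all tested genes) and 1 higher (6.67%, beside 23%), with a median of −0.37. Idh3a, a subunit of isocitrate dehydrogenase, fell from 85.1 ± 2.50 to 37.7 ± 3.29 CPM (−1.18 ± 0.07; edgeR adjusted p = 5.8e-05), and Fh1, the fumarase that follows complex II, from 112 ± 8.15 to 55.1 ± 0.0548 (−1.02 ± 0.06; chosen after its value was seen). The gene that rose was Irg1 (Acod1 in RefSeq), whose enzyme makes itaconate, an inhibitor of complex II. It was 57.3, 64.4 and 54.4 CPM in DMSO and 144, 112 and 161 in AMLE (1.25 ± 0.14; edgeR adjusted p = 5.4e-04).

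Ubiquinone synthesis genes, which make the electron carrier between complexes II and III, were lower in 6 of 13 (46.2%, beside 25.6% of all tested genes) and higher in 2 (15.4%, beside 23%). Coq7, a hydroxylase late in the pathway, fell from 14.9, 15.4 and 14.6 CPM to 6.64, 6.80 and 6.76 (−1.15 ± 0.07; edgeR adjusted p = 6.8e-05) and Pdss1, which makes the side chain, fell by 0.95 on the log2 scale. The count of 6 was 3 when DMSO library 1 or AMLE library 1 or 2 was left out, beside 20.3%, 20.2% and 20.9% of all genes called lower in those fits. The count of 2 higher (Coq10b and Adck4) was 1 with DESeq2, without the filter, with either treatment's library 1 or 3 left out and without both libraries numbered 3. It was 0 without DMSO replicate 2.

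Of 15 tested regulators of mitochondrial genes, 8 were lower (53.3%, beside 25.6% of all tested genes) and 0 higher (beside 23%). DESeq2, limma-voom and edgeR at an unadjusted p under 0.05 also gave 0 higher. The coactivator Ppargc1b was 13.7, 13.4 and 15.6 CPM in DMSO and 7.22, 6.42 and 11.1 in AMLE (−0.80 ± 0.20; edgeR adjusted p = 0.0159). Tfb1m, a methyltransferase of the mitochondrial ribosome, fell by 0.62 on the log2 scale, Tfam, which packages and transcribes mitochondrial DNA, by 0.43 and Gabpa, an ETS factor, by 0.34. Nrf1 (−0.13 ± 0.06; edgeR adjusted p = 0.104), Esrra (−0.02) and Hif1a (0.08) were not called, and Ppargc1a had too few counts to be tested. Without AMLE replicate 1 the count of lower regulators was 5, beside 20.2% of all genes called lower in that fit.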

How the data were processed

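What the authors deposited is raw counts by gene symbol for 6 libraries from a stranded poly(A) kit, per the labels' protocols, and 1 ATAC peak list per library with a fold enrichment (a ratio) and a −log10 q. Tools listed in the submitters' processing notes, with no roles, include STAR 2.7.11b, Bowtie2 2.4.4 and MACS3 3.0.0a7 (build mm10). How reads were counted, the strand setting and peak options: not given in the sources used here. Counts of small subunits with near-identical pseudogenes are uncertain.

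Counts were tested with edgeR 4.0.16 (R 4.3.3; TMM, filterByExpr, robust quasi-likelihood, two-sided). SE is the absolute log2 change over the square root of F. Alternatives were DESeq2 1.42.0, limma-voom (limma 3.58.1), 3 other scalings, no filter, a replicate block and fits without libraries. Deviations from group means correlated at 0.292, 0.28 and 0.431 between libraries of the same number. Across numbers 1 and 2 the correlations were 0.105 and 0.11, and between number 3 and the others −0.31 to −0.266. Number 3 thus stood further apart than 1 from 2, and deviations from a mean sum to 0, which favours negative values across numbers. On this limited ground the numbers were taken to pair libraries in the replicate block fit and in the pairwise changes. The labels do not say so, and the main edgeR fit, which gave the calls, has no block. The test was also run on simulated counts with far fewer changed genes than were called here, and no result above rests on that run. Peaks were matched to RefSeq starts (GRCm38.p6, the build of mm10) by 1 shared base.

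The members and lists were chosen with earlier results of these data known. Per-library values went to the largest called fall in each complex, members called differently from most of their complex and isoform genes; each related list gave the 2 called genes with the largest change and a mean of at least 1 CPM, and other names were added after their values were seen. Of 188 list entries, 181 were in the table (5 by an older symbol). Among markers the rule named Ccnb1 (log2 change −2.48), Birc5 (−2.17), Elane (−4.62), Mpo (−3.01), C1qa (−4.99), C1qc (−4.55), Cd209a (−4.94) and Flt3 (2.27).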

Additional observations from a re-analysis of the deposited data

How the results depend on the processing

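Over 14 alternative fits, 22 of the 31 members called lower were called lower in every one, and no called member changed direction. The count was 24 without DMSO replicate 2 and 28 with upper-quartile factors, and it was 31 of the same genes plus Cox7c with a replicate block, which changed no other call of a member. In the related lists the block gave 3 lower for complex III assembly, 6 for complex IV assembly and 9 regulators, and 3 higher ubiquinone genes. Leaving out 1 library at a time gave 24 to 30 members lower, 0 to 1 higher (also 0 to 1 in complex IV, Cox6b2 without DMSO replicate 3 or AMLE replicate 3) and 4 to 7 lower in complex III. Without both libraries numbered 3, 2 members were higher, both of complex IV (Cox6b2 and Cox7a2l). Atp5l, Cox6a1 and Atp5d were called in 4, 8 and 9 of the 14 fits. Over the 14 fits 18.2% to 29.2% of tested genes were called lower and 15.8% to 26.3% higher, and the median of all tested genes lay between −0.02 and 0.03 on the log2 scale. In the related lists, leaving out 1 library gave 1 to 3 lower for complex III assembly, 3 to 4 lower and 1 to 2 higher for complex IV assembly, 0 to 1 higher for complex V assembly, 3 to 5 lower and 0 to 2 higher for ubiquinone synthesis, and 5 to 8 lower regulators. Upper-quartile factors gave 1 higher complex III assembly factor, DESeq2 gave 3 lower complex IV assembly factors, and DESeq2, no low-count filter and the fit without both libraries numbered 3 gave 1 higher ubiquinone gene. Counts of members with a promoter peak were the same with a window of 1000 bases, with −log10 q of at least 5 and with the summit in the window. The cause of these changes was not tested. Fits that left libraries out also rest on fewer of them, while the other fits kept all 6.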
